A study of Mus musculus with 71 samples.

Results

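The genes described here are 10 protein-coding genes of mouse chromosome 14: Gpc6, Tgds, Gpr180, Sox21, Abcc4, Dzip1, Uggt2, Farp1, Dock9 and Esd. They were chosen as neighbours of the miR-17~92 microRNA cluster, and all 10 were found among the 37620 genes of the deposited count table. The study compared embryos of the C57BL/6 strain at embryonic day 9.5, with 20 to 22 somites, that carried 1 of 8 genotypes at the cluster. Wild type kept the whole cluster and the full knockout lacked it. Δ17 lacked miR-17 and miR-20a, Δ18 lacked miR-18a. In Δ19 the missing pair was miR-19a with miR-19b-1, while Δ92 lacked only miR-92a-1. Δ17,18 lacked miR-17, miR-20a and miR-18a, and Δ17,18,92 lacked these and miR-92a-1, so that of the cluster only the miR-19 pair was left. From each embryo group the tail bud, the heart and the remaining embryo were taken, with 3 libraries in each group except Δ17,18,92 in the remaining embryo, which had 2, giving 71 libraries in 24 groups. The series text calls the replicates biological; how each allele was made was not given in the sources used here. The question put to these genes was whether their changes followed the missing microRNAs or single alleles.

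The label of a neighbour was checked against the order of protein-coding genes on chromosome 14. Counting from Mir17hg, the host gene of the cluster, Gpc6 was gene 2 after it, Tgds gene 4, Gpr180 gene 5, Sox21 gene 6, Abcc4 gene 8, Dzip1 gene 10, Uggt2 gene 12, Farp1 gene 18 and Dock9 gene 21. Esd lay on the other side, with 79 protein-coding genes between it and Mir17hg, so the name neighbour does not hold for Esd by gene order. The members were chosen with results of these libraries in view, and the rule states no threshold. Their differences between mutants and wild type are therefore given as a description, without p-values. The same holds for what is computed from these differences: contrasts between mutants, family terms, departures from additive effects and differences of a change between tissues. For members, p-values are given only for the contrasts between wild-type tissues. Where a member is said to have passed, an adjusted p under 0.05 is meant as a description.

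A microRNA pairs through its seed, bases 2 to 8 from its 5′ end, with matching sites in the 3′ untranslated regions of messenger RNAs, and lowers the stability and translation of those messages. The miR-17~92 primary transcript yields 6 microRNAs that fall into 4 seed families. The cluster is known for its part in the growth of the heart, lung and skeleton. Loss of a family is known to raise messages with matching sites. The mature sequences are shown because the genotypes differ in exactly these. Capitals mark the seed. They come from RefSeq on GRCm38.p6, where all lie on the plus strand of chromosome 14 between 115043684 and 115044496.
miR-17-5p: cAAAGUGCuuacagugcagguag
miR-20a-5p: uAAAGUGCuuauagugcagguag
miR-18a-5p: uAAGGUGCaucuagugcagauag
miR-19a-3p: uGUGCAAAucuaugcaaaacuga
miR-19b-3p: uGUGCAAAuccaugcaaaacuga
miR-92a-3p: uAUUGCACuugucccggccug
miR-17 and miR-20a share the seed AAAGUGC, miR-19a and miR-19b share GUGCAAA, and miR-18a and miR-92a each have a seed of their own.

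The longest annotated 3′ untranslated region of each member was searched for the complement of bases 2 to 8 of each seed, on the transcribed strand. Of the 10 members, 4 held such a match and 6 (Gpc6, Tgds, Uggt2, Dzip1, Abcc4 and Esd) held none for any of the 4 families. The matches are shown in capitals with 8 bases before and 7 after, because they separate the members into those with and without a matching site.
Gpr180, miR-92 family: atggagaaGTGCAATAggatcca
Farp1, miR-92 family: gatacccaGTGCAATAcgtgggc
Dock9, miR-92 family: cataagaaGTGCAATAtggagat
Sox21, miR-19 family: gtgtttgcTTTGCACttcggaa
The 3 miR-92 matches were of the 8-base kind, GTGCAATA, and the Sox21 match was of the 7-base kind, TTTGCAC. Among 19735 genes with an annotated region, 6.69% held GTGCAAT and 2.36% held GTGCAATA. The motif TTTGCAC was in 11.5%, the miR-17 motif GCACTTT in 12.1% and the miR-18 motif GCACCTT in 7.94%. A match describes the letters only and was not tested for binding.

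Library totals ran from 13532012 to 27477273 counts. Levels are given as CPM, each gene's counts relative to the library size after scaling with TMM factors within a tissue, and differences as log2 fold changes ± standard error from edgeR's quasi-likelihood fit. The heart markers Myh6, Myl7, Nppa, Tnnt2 and Nkx2-5 summed to 12300 to 14900 CPM in heart libraries and to 2.56 to 12.9 CPM in tail bud libraries. The tail bud markers T, Tbx6, Wnt3a, Fgf8 and Cdx2 summed to 497 to 794 CPM in tail bud and to 5.37 to 17.5 CPM in heart, so both tissues matched their labels. The heart markers summed to 221 to 304 CPM in the remaining embryo of Δ17,18,92 against 113 to 164 CPM in wild type. Sums of other marker lists, not reported here, also differed between genotypes. Some of them in full knockout tail bud did not overlap wild type. The part of heart tissue or of other differences in composition in the results below was not tested. In bulk tissue, fewer cells of a type and less RNA per cell cannot be told apart. Wild-type tail bud replicate 3 stood apart for several members, with the highest Gpr180 (32.4 CPM) and Esd (65.7 CPM) and the lowest Uggt2 (36.2 CPM), Dock9 (51.6 CPM) and Farp1 (149 CPM) of its group. Tail bud values without it are given where they moved most. Libraries of 1 genotype with the same replicate number often deviated together across tissues. Of 70 such pairs, 50 had a correlation of deviations above 0.1 (median 0.154). A pattern seen in several tissues is therefore not seen in independent samples. For different numbers the median was -0.0755, which is no independent reference, since deviations were taken from the group mean. Same-numbered full knockout pairs that include the remaining embryo ran from -0.064 to 0.07. The count rows of all 6 hairpins of the cluster were at 0 in every library, so the counts do not show which microRNA a library lacks.

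The host transcript Mir17hg, from which the microRNAs are cut, gave the check of the locus that the counts allowed. In tail bud its level was 128 ± 16.1 CPM (SD, n = 3) in wild type, 137 ± 9.72 in Δ18, 168 ± 14.6 in Δ92, 178 ± 7.83 in Δ19, 243 ± 5.66 in Δ17, 260 ± 10.5 in Δ17,18, 358 ± 4.30 in the full knockout and 420 ± 14.2 in Δ17,18,92. In heart it ran from 37.2 ± 0.34 CPM in Δ18 and 39.8 ± 2.09 in wild type to 142 ± 4.10 in the full knockout. In the remaining embryo it was 158 ± 3.44 CPM in wild type, 162 ± 10.1 in Δ18, 208 ± 15.5 in Δ92 and 441 ± 19.5 in the full knockout. All mutants except Δ18 lay wholly above wild type in each tissue. Δ18 overlapped wild type in tail bud and the remaining embryo. In heart its libraries (36.8 to 37.5 CPM) lay below those of wild type (38.1 to 42.1 CPM). Gpc5, the first gene after Mir17hg and a glypican like Gpc6, had at most 9 heart counts per library and was not tested there. Its heart libraries held 6 to 9 counts in the full knockout, 0 to 1 in wild type and at most 5 in the other mutants. Gpc5 passed in none of the 14 comparisons with wild type in the other tissues (edgeR, adjusted p = 0.227 in full knockout tail bud).

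In the fit of the 9 wild-type libraries, whose scaling spans tissues, Farp1 had the highest level per kilobase of exon and Sox21 in heart the lowest. Per kilobase, Farp1, a FERM-domain exchange factor for small GTPases, stood at 29.1 ± 2.91 CPM per kb (SD, n = 3) in tail bud, 36.9 ± 1.38 in heart and 33.6 ± 1.14 in remaining embryo. Esd, esterase D, which hydrolyses S-formylglutathione, followed with 16.1 ± 2.13, 16.3 ± 0.63 and 14.7 ± 0.89 CPM per kb, and Gpr180, a membrane protein related to G protein-coupled receptors, with 14.2 ± 1.98, 15.0 ± 1.62 and 13.7 ± 0.30. Esd and Gpr180 did not differ beyond their spread in any tissue. In tail bud, Gpc6 (12.8 ± 1.29 CPM per kb) also overlapped Gpr180, and below it came Tgds (8.16 ± 0.09), Dock9 (4.54 ± 0.82), Dzip1 (4.33 ± 0.58), Uggt2 (3.29 ± 0.53), Abcc4 (1.99 ± 0.0028) and Sox21 (1.43 ± 0.29). Dock9 and Dzip1 were neighbours in that order within their spread.

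The level of 7 members differed between wild-type heart and tail bud, where 68.6% of all genes tested passed an adjusted p under 0.05 in edgeR. Gpc6 was lower in heart (log2 -1.69 ± 0.09, heart 25.5 ± 2.27 and tail bud 82.3 ± 8.30 CPM, adjusted p = 2.9e-09), Dzip1 fell by 1.36 ± 0.10 (adjusted p = 7.37e-08) and Abcc4 fell by 1.05 ± 0.14 (adjusted p = 1.58e-05). Sox21 was at 0.341 ± 0.166 CPM in heart and 5.43 ± 1.10 CPM in tail bud (adjusted p = 3.85e-08). Tgds, Farp1 and Dock9 were higher in heart, by 0.42 ± 0.07, 0.34 ± 0.07 and 0.48 ± 0.11. Between heart and rest of embryo, 6 members differed (background 68.1%). Between rest of embryo and tail bud 3 did (29.8%): Sox21, a transcription factor of neural progenitors, was higher in the remaining embryo by 2.11 ± 0.15, Farp1 was higher by 0.21 ± 0.07 (adjusted p = 0.0359, and up to 0.147 with 1 library left out), and Dock9 was lower there by 0.82 ± 0.11 (log2 -0.82). Uggt2, Gpr180 and Esd passed in none of the 3 contrasts. For them the log2 differences ran from -0.16 ± 0.11 to 0.19 ± 0.11.

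**Figure D1:**
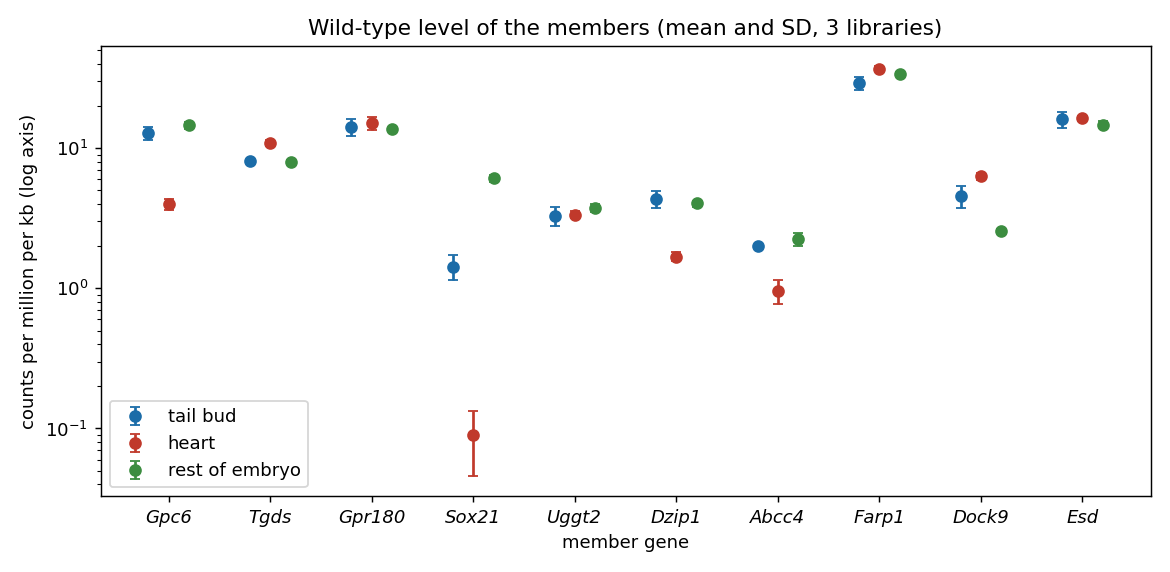
Wild-type level of each member in CPM per kilobase of exon (vertical axis, log scale) in tail bud, heart and rest of embryo; points are means and bars SD of 3 libraries. Farp1 is highest in all tissues, and Gpc6, Sox21, Dzip1 and Abcc4 are lower in heart than in the other two.

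Against wild type, 42 of the 210 member-by-comparison values passed an adjusted p under 0.05. In tail bud, 5 members passed in the full knockout, where 10.4% of all genes did. There, 1 passed in Δ17 (background 1.77%), 2 in Δ19 (1.03%), 3 in Δ17,18 (8.31%) and 3 in Δ17,18,92 (5.57%). In Δ18 (background 0.129%) and Δ92 (0.359%) edgeR called no member in tail bud, 2 members in each had an unadjusted p under 0.05, and DESeq2 called 0 in Δ18 and 2 in Δ92. Without wild-type replicate 3, 8 of the 14 tail bud values still passed. The share of all genes that passed fell as well. It was then 4.47% in the full knockout, 1.04% in Δ17, 0.453% in Δ19, 2.54% in Δ17,18 and 2.9% in Δ17,18,92. The member values lost were Gpc6, Dzip1 and Farp1 in Δ17,18,92 and Dzip1, Farp1 and Dock9 in the full knockout.

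In heart, 2 members passed in the full knockout (background 3.91%), 3 in Δ17 (0.555%), 3 in Δ19 (0.406%) and 4 in Δ17,18 (1.12%). Heart Δ18 (background 0.0418%), Δ92 (0.0716%) and Δ17,18,92 (1.89%) had none by edgeR or by DESeq2, with 0, 3 and 2 members at an unadjusted p under 0.05. In the remaining embryo, 3 members passed in the full knockout (background 6.66%), 2 in Δ17 (1.56%), 3 in Δ19 (1.88%), 3 in Δ17,18 (4.44%) and 5 in Δ17,18,92 (5.62%). In Δ18 (0.36%) and Δ92 (0.588%) edgeR called none there, 2 in each had an unadjusted p under 0.05, and DESeq2 called 1 in Δ18 and 0 in Δ92. All 7 mutants of a tissue were compared with the same wild-type libraries. Nothing is read from these counts, since the members were chosen from such values.

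**Figure D2:**
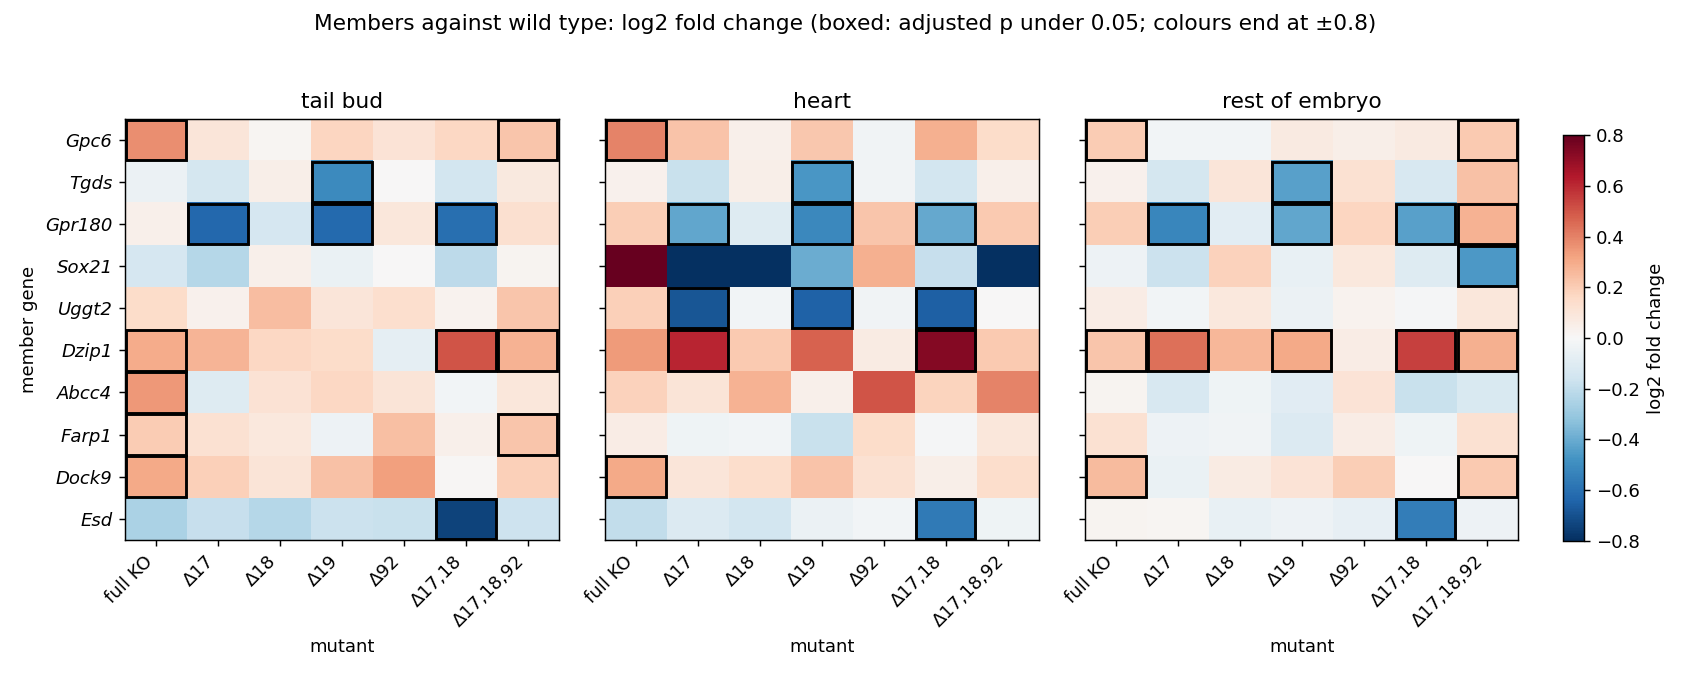
Log2 fold change of each member (rows) in each mutant (columns) against wild type, in tail bud, heart and rest of embryo; red is higher, blue lower, colours end at ±0.8, and boxes mark an adjusted p under 0.05. Gpr180 is blue in Δ17, Δ19 and Δ17,18 of every tissue, Tgds in Δ19, Esd in Δ17,18 and Uggt2 in 3 heart genotypes, while Dzip1 is red in all its boxed places. The strong heart colours of Sox21 rest on at most 16 counts per library.

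Gpr180 was lower in Δ17, Δ19 and Δ17,18 in every tissue and was not lower in the full knockout or Δ17,18,92. In tail bud the wild-type libraries held 24.6, 26.4 and 32.4 CPM. The Δ17 libraries held 18.6, 18.0 and 17.1 CPM, the Δ19 libraries 17.2, 17.5 and 19.2, and the Δ17,18 libraries 18.5, 17.6 and 18.7. The full knockout, which lacks all the microRNAs missing from those, held 28.3, 29.9 and 27.1 CPM, and Δ17,18,92 held 30.7, 29.4 and 30.5. Every library of the 3 low genotypes lay below every library of wild type, the full knockout and Δ17,18,92. The log2 fold changes against wild type were -0.63 ± 0.08 in Δ17, -0.62 ± 0.08 in Δ19 and -0.60 ± 0.08 in Δ17,18, against 0.04 in the full knockout and 0.13 in Δ17,18,92. Without wild-type replicate 3 the first 3 were -0.51, -0.50 and -0.48, and the other values 0.16 in the full knockout and 0.25 in Δ17,18,92.

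Δ17, Δ19 and Δ17,18 also had the 3 lowest Gpr180 means in the other tissues. In heart, wild type held 27.9, 23.5 and 23.6 CPM, Δ17 held 19.3, 18.2 and 18.8, Δ19 held 16.0, 17.9 and 18.8, and Δ17,18 held 20.0, 19.5 and 17.2. Δ17,18,92 held 29.2, 29.2 and 28.6 CPM and the full knockout 28.0, 27.3 and 30.7, neither below wild type. Wild-type libraries of the remaining embryo held 27.2, 28.3 and 27.5 CPM, Δ17 held 19.3, 19.2 and 19.3, Δ19 held 18.6, 22.1 and 21.5, and Δ17,18 held 23.3, 18.8 and 19.5. There the full knockout (31.9, 30.7 and 32.4 CPM) and Δ17,18,92 (32.4 and 34.8 CPM) lay above all wild-type libraries. The heart changes were -0.41 ± 0.09 in Δ17, -0.51 ± 0.09 in Δ19 and -0.41 ± 0.09 in Δ17,18, and those in the remaining embryo -0.52 ± 0.07, -0.42 ± 0.07 and -0.43 ± 0.07. Without heart wild-type replicate 1, the highest of its group, the heart changes were -0.33, -0.42 and -0.32 and no longer passed. With any 1 compared library left out, the heart calls were kept in 2 of 6 fits in Δ17, 5 of 6 in Δ19 and 4 of 6 in Δ17,18. In heart, Δ18 held 23.4, 23.2 and 23.2 CPM, at the lower edge of wild type, and Δ92 held 33.9, 26.9 and 27.2 CPM, overlapping it. In the remaining embryo Δ18 held 27.2, 26.3 and 24.7 CPM, while Δ92 held 32.8, 29.0 and 31.7 CPM, all above wild type.

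**Figure D3:**
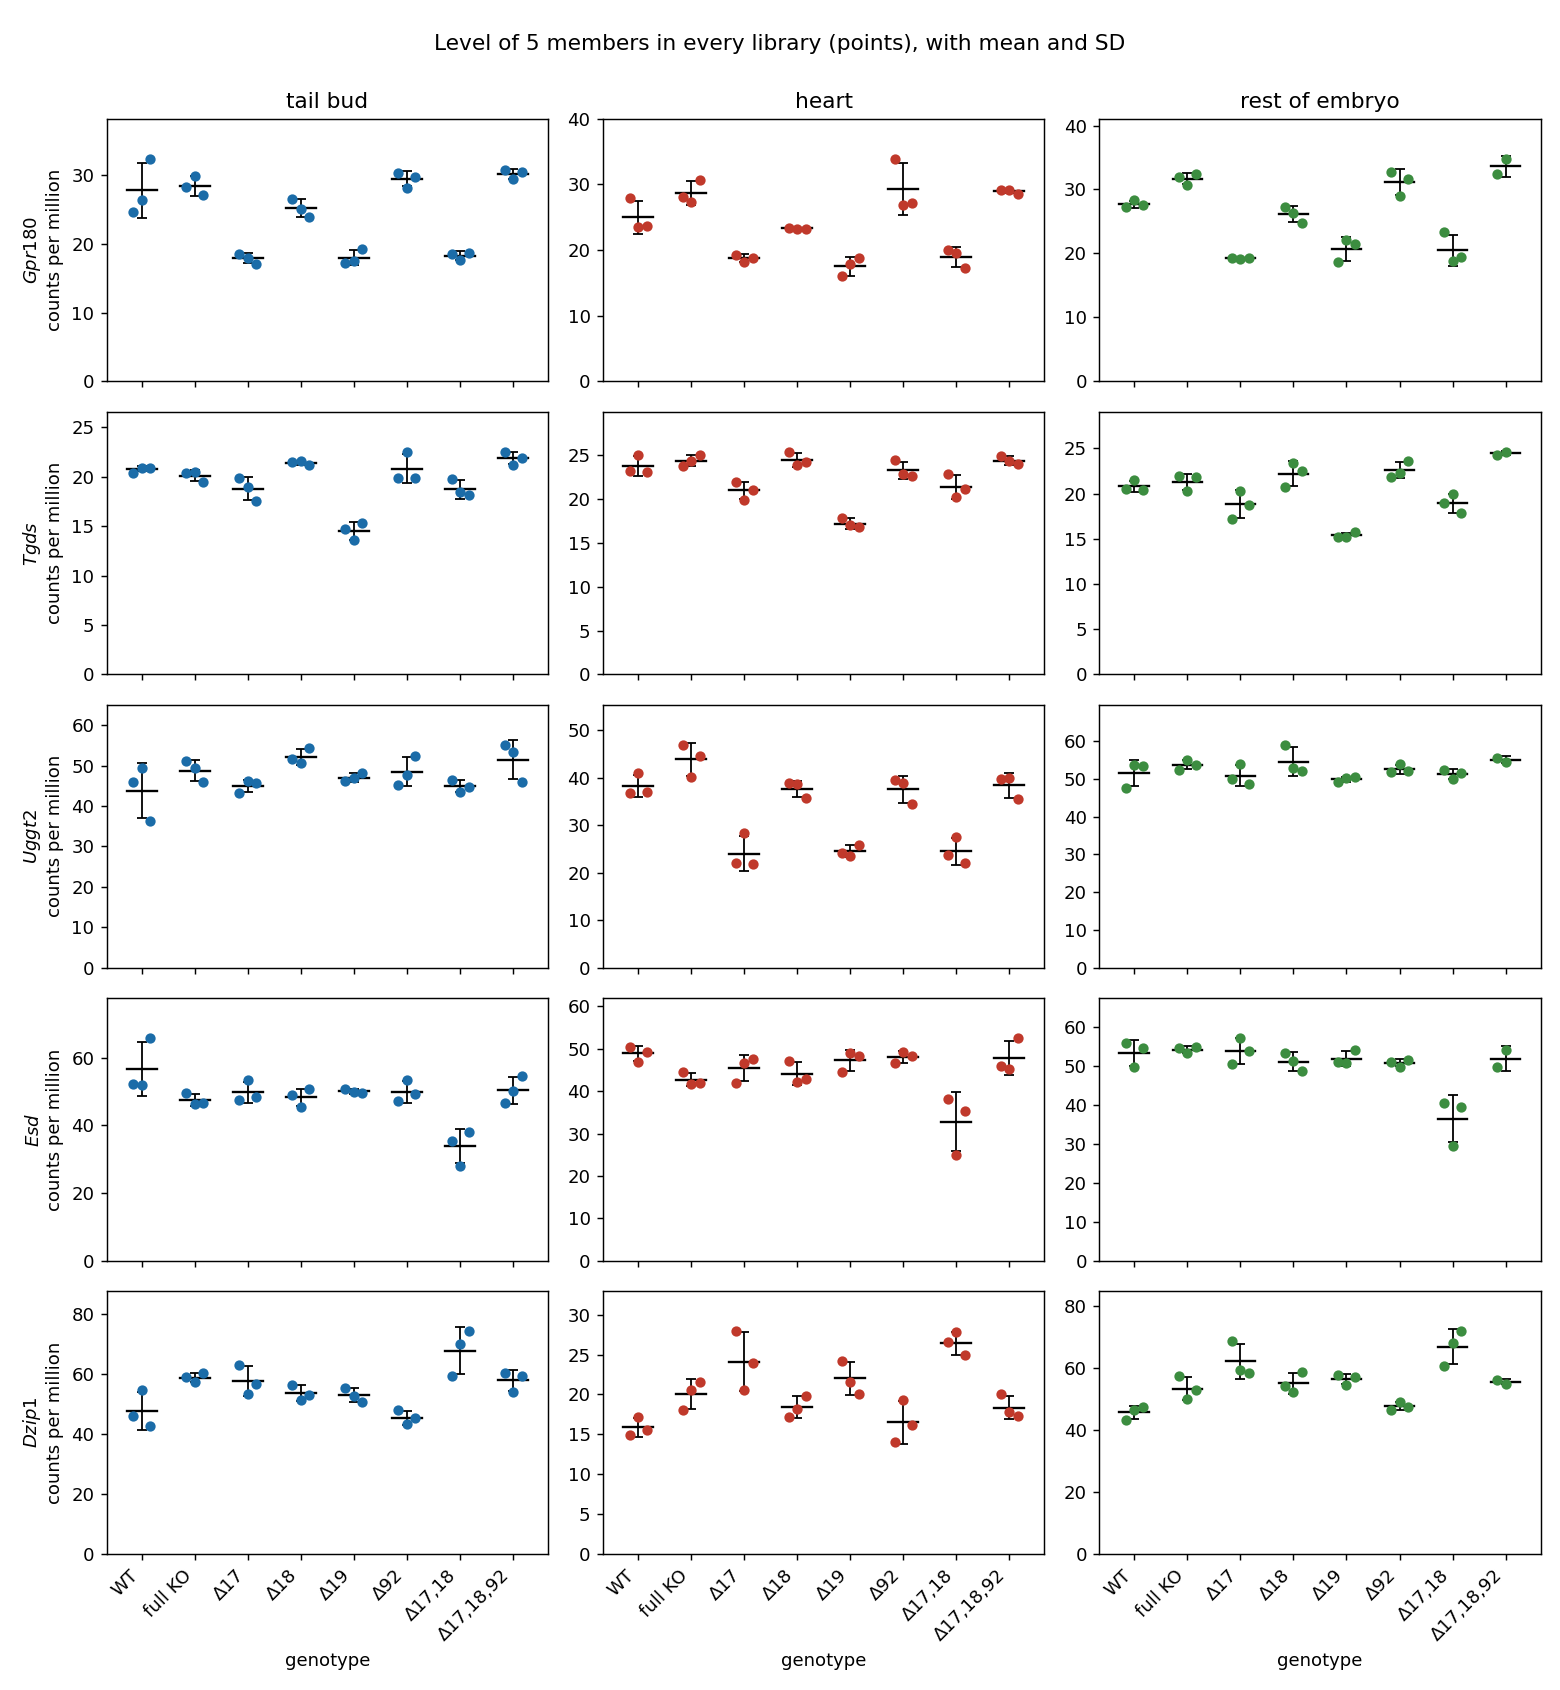
Level of Gpr180, Tgds, Uggt2, Esd and Dzip1 (rows) in CPM in every library (points) of the 8 genotypes, by tissue (columns); horizontal lines are means and bars SD of 3 libraries (2 for Δ17,18,92 in the remaining embryo). Gpr180 is low in Δ17, Δ19 and Δ17,18 in each tissue, Tgds in Δ19, Esd in Δ17,18 and Uggt2 in the same 3 genotypes as Gpr180 but in heart only.

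Tgds, which encodes a dehydratase of nucleotide sugars and lies next to Gpr180, was lower in Δ19 in every tissue. In tail bud, Δ19 held 14.7, 13.6 and 15.3 CPM against 20.4, 20.9 and 20.9 CPM in wild type. In heart, Δ19 held 17.9, 17.0 and 16.8 CPM against 23.2, 25.0 and 23.1 CPM. The remaining embryo of Δ19 held 15.2, 15.2 and 15.7 CPM against 20.5, 21.5 and 20.4 CPM. The Δ19 libraries lay below those of every other genotype in all 3 tissues. The log2 fold changes were -0.51 ± 0.07, -0.47 ± 0.07 and -0.44 ± 0.07. The libraries of Δ17 and Δ17,18 also lay below wild type in each tissue, with log2 differences between -0.18 and -0.13 that did not pass. The full knockout, which also lacks the miR-19 pair, held 20.4, 20.5 and 19.5 CPM in tail bud, 23.8, 24.4 and 25.0 CPM in heart and 21.9, 20.3 and 21.8 CPM in the remaining embryo, with log2 differences of -0.04, 0.04 and 0.04.

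Uggt2, an endoplasmic reticulum enzyme that adds glucose back to misfolded glycoproteins, was lower in heart in the same 3 genotypes as Gpr180. Heart libraries held 36.9, 41.0 and 37.0 CPM in wild type, 22.1, 28.3 and 21.8 in Δ17, 24.1, 23.5 and 25.9 in Δ19 and 23.8, 27.6 and 22.1 in Δ17,18. The heart libraries of Δ17,18,92 (39.8, 40.0 and 35.5 CPM) and of the full knockout (46.9, 40.1 and 44.6 CPM) did not overlap the 3 low groups. The heart changes were -0.68 ± 0.09 in Δ17, -0.65 ± 0.09 in Δ19 and -0.65 ± 0.09 in Δ17,18. In tail bud, by contrast, Δ17 held 43.2, 46.2 and 45.6 CPM within the wild-type range of 36.2 to 49.3, with a log2 difference of 0.03. The remaining embryo of Δ17 held 50.0, 54.0 and 48.8 CPM against 47.7, 53.7 and 53.4 in wild type. Of the exonic bases of Uggt2, 1.72% overlap the antisense transcript Gm16835, whose reads cannot be told apart without strand.

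The fit of all 71 libraries that compares a change between tissues called Uggt2 and no other member in Δ17, Δ19 and Δ17,18, where 0.0265%, 0.117% and 0.106% of all genes passed. In the full knockout (background 0.291%), Δ18 (0%), Δ92 (0.0053%) and Δ17,18,92 (0.228%) the edgeR test called no member, with 0, 0, 1 and 1 members at an unadjusted p under 0.05, Abcc4 in both cases. Nothing is read from these counts, which use the changes against wild type that chose the members.

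Esd was lowest in Δ17,18 in every tissue. In tail bud, Δ17,18 held 35.4, 28.1 and 37.9 CPM against 52.3, 51.9 and 65.7 in wild type. In heart it held 38.1, 24.9 and 35.3 CPM against 50.4, 47.0 and 49.3. The remaining embryo held 40.4, 29.4 and 39.3 CPM against 55.8, 49.5 and 54.4. Replicate 2 was the lowest Δ17,18 library in each tissue, and all Δ17,18 libraries lay below all libraries of the other 7 genotypes in each tissue. The log2 fold changes were -0.74 ± 0.09 in tail bud (-0.63 without wild-type replicate 3), -0.57 ± 0.10 in heart and -0.56 ± 0.08 in remaining embryo. Δ17,18,92, which lacks the same microRNAs and miR-92a-1, held 46.5, 50.0 and 54.4 CPM in tail bud, 45.9, 45.2 and 52.5 in heart and 49.5 and 54.1 in the remaining embryo. The full knockout held 49.4, 46.3 and 46.5 CPM in tail bud and 44.5, 41.6 and 42.0 in heart. Both groups lay wholly below wild type (log2 -0.25 and -0.20) but did not pass. In the remaining embryo the full knockout held 54.4, 53.2 and 54.7 CPM.

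Dzip1, a zinc finger protein of the ciliary base that is needed for Hedgehog signalling, was the member most often higher, in 10 of 21 comparisons. Tail bud libraries held 45.8, 54.5 and 42.5 CPM in wild type, 59.1, 69.8 and 74.1 in Δ17,18 and 58.9, 57.1 and 60.1 in the full knockout. Heart libraries held 14.9, 17.2 and 15.5 CPM in wild type, 27.9, 20.5 and 23.9 in Δ17 and 26.6, 27.8 and 25.0 in Δ17,18. Libraries of the remaining embryo held 43.3, 46.4 and 47.4 CPM in wild type, 68.8, 59.3 and 58.4 in Δ17, 60.8, 68.2 and 71.9 in Δ17,18 and 57.4, 50.1 and 52.8 in the full knockout. Each of these mutant groups lay wholly above wild type. With 1 compared library left out, the full knockout calls in tail bud and remaining embryo were each kept in 2 of 6 fits. In all 3 tissues the Δ17,18 mean was the highest of the 8 genotypes, with log2 fold changes of 0.50 ± 0.08 (0.43 without wild-type replicate 3), 0.74 ± 0.11 and 0.55 ± 0.06. Δ92 stayed close to wild type (log2 -0.07, 0.07 and 0.06). Dzip1 held no seed match in its longest 3′ untranslated region.

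Gpc6, a glypican whose heparan sulphate chains bind growth factors, was higher in the full knockout in every tissue. In tail bud the full knockout held 113, 110 and 112 CPM against 86.9, 93.4 and 77.1 CPM in wild type, and in heart 28.8, 32.5 and 28.3 CPM against 20.6, 22.7 and 25.0 CPM. In the remaining embryo the full knockout held 120, 117 and 112 CPM and Δ17,18,92 held 118 and 116 CPM, against 94.7, 104 and 104 CPM. The groups did not overlap. The log2 fold changes in Δ17,18,92 were 0.22 ± 0.06 in tail bud (0.16 and no longer past the threshold without wild-type replicate 3) and 0.21 ± 0.05 in the remaining embryo. Without wild-type replicate 1 of the tissue, the full knockout changes were 0.33 in heart and 0.16 in remaining embryo and no longer passed. The remaining embryo change of Δ17,18,92 was then 0.17 and no longer passed either. Δ18 stayed at 0.01 to 0.04 in tail bud and heart.

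The exchange factors Farp1 and Dock9, which activate small GTPases, moved by less. In tail bud Farp1 held 187, 198 and 193 CPM in the full knockout and 188, 194 and 203 CPM in Δ17,18,92 against 177, 176 and 149 CPM in wild type, with log2 fold changes of 0.20 ± 0.06 and 0.22 ± 0.06. They were 0.13 and 0.15 without wild-type replicate 3, the lowest of its group, and no longer passed. Farp1 was as high in Δ92 tail bud (207, 195 and 193 CPM, 0.24 ± 0.06, and 0.17 without that replicate), which did not pass. In tail bud Dock9 held 80.7, 73.5 and 78.8 CPM in the full knockout against 73.8, 62.5 and 51.6 in wild type. In heart these groups held 97.6, 94.2 and 85.3 against 71.6, 72.5 and 80.4 CPM, and in the remaining embryo 44.3, 43.0 and 44.2 against 36.4, 36.0 and 37.9 CPM. The full knockout changes of Dock9 were 0.30 ± 0.09, 0.30 ± 0.09 and 0.26 ± 0.05. The tail bud groups overlapped, and the change there was 0.19 ± 0.08 without wild-type replicate 3 and no longer passed. In heart the call was kept in 2 of 6 fits with 1 compared library left out. In Δ92 tail bud Dock9 held 85.8, 71.8 and 79.0 CPM (0.33 ± 0.09, and 0.21 without that replicate), which did not pass.

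Abcc4 and Sox21 each passed in 1 comparison with wild type. Abcc4, a transporter that exports cyclic nucleotides, held 16.3, 17.1 and 17.1 CPM in full knockout tail bud against 13.2, 13.2 and 13.4 CPM in wild type, a log2 fold change of 0.35 ± 0.09. With 1 compared library left out, this call was kept in 4 of 6 fits. The full knockout changes of Abcc4 were 0.19 in heart and 0.02 in remaining embryo and did not pass. In heart Abcc4 held 8.49, 7.44 and 7.42 CPM in Δ92 against 6.50, 5.39 and 4.50 CPM in wild type, without overlap, but did not pass the test (0.50 ± 0.14). Sox21 was lower in the remaining embryo of Δ17,18,92, with 18.9 and 17.5 CPM against 23.9, 26.6 and 24.5 CPM, a log2 fold change of -0.46 ± 0.08 that rests on 2 libraries. In heart Sox21 had 0 to 16 counts per library and no comparison is drawn there. Of its exonic bases, 18.8% overlap the antisense transcript Gm4675.

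Mutants that differ by a single family were compared directly. These contrasts leave out the wild-type mean, but the wild-type libraries still enter the filter, scaling and shared spread of the fit. When the loss of miR-92a-1 was added to Δ17,18, 2 members passed in tail bud (background 0.67%), 4 in heart (0.693%) and 5 in remaining embryo (2.52%). Gpr180 was higher in Δ17,18,92 than in Δ17,18 by 0.73 ± 0.08 in tail bud, 0.62 ± 0.09 in heart and 0.71 ± 0.08 in remaining embryo. Esd was higher by 0.58 ± 0.09, 0.53 ± 0.10 and 0.52 ± 0.09. Uggt2 was higher in heart by 0.66 ± 0.09. Dzip1 differed the other way in heart (-0.52 ± 0.11) and in remaining embryo (-0.27 ± 0.07). In the remaining embryo, Tgds (0.37 ± 0.07) and Sox21 (-0.36 ± 0.08) also passed. Without Δ17,18,92 replicate 2, which leaves 1 library assumed to vary like the other groups, Tgds, Sox21 and Dzip1 no longer passed there. Dzip1 also fell short in this step without other single libraries, in heart and in the remaining embryo. Farp1 and Dock9, which have a miR-92 match like Gpr180, passed in no tissue in this step, and their tail bud differences were 0.18 ± 0.06 and 0.18 ± 0.09.

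Adding the loss of miR-17 and miR-20a to Δ18 gave 3 members past the threshold in tail bud (background 0.8%), 2 in heart (0.519%) and 4 in remaining embryo (1.42%). Gpr180 was lower in Δ17,18 than in Δ18 by 0.47 ± 0.08 in tail bud (log2 -0.47) and by 0.35 ± 0.07 in the remaining embryo (log2 -0.35). In heart Uggt2 was lower (-0.63 ± 0.09) and Dzip1 higher (0.52 ± 0.11). Esd was lower in tail bud (-0.52 ± 0.09) and remaining embryo (-0.50 ± 0.08). Dzip1 was higher in tail bud (0.34 ± 0.08) and remaining embryo (0.28 ± 0.06). With 1 library left out, Dzip1 in each tissue and Gpr180 in the remaining embryo could fall short of the threshold. Sox21 in the remaining embryo (-0.29 ± 0.07) fell short when any 1 of the 6 libraries was left out.

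For the loss of miR-18a added to Δ17, Esd in the remaining embryo was lower by 0.57 ± 0.08 (log2 -0.57) and was the member that passed there, with 0.137% of all genes. In tail bud (background 0%) and heart (0.0179%) edgeR called no member for this step, 2 and 1 members had an unadjusted p under 0.05, and DESeq2 called 1 in each. With the miR-19 pair removed from Δ17,18,92 to reach the full knockout, Sox21 was higher in the remaining embryo (0.42 ± 0.08, background 1.78%), and no longer passed without Δ17,18,92 replicate 2 or without full knockout replicate 1. For that step edgeR and DESeq2 called no member in tail bud (background 0.341%) or heart (3.76%), with 2 and 3 members at an unadjusted p under 0.05. Tgds, which was low in Δ19, was lower in the full knockout than in Δ17,18,92 in the remaining embryo, at 21.3 against 24.5 CPM on average (log2 -0.20 ± 0.07), and did not pass. It was 1 of 2 members with an unadjusted p under 0.05 there.

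A model that coded each library by the families it lacks gave 4 additive terms per tissue, fitted on all libraries including wild type. The miR-92 term was positive in value for each of the 3 members with a miR-92 match, and passed in every tissue for Gpr180 and Farp1 and in the remaining embryo for Dock9. For Gpr180 it was 0.54 ± 0.08 in tail bud, 0.54 ± 0.07 in heart and 0.53 ± 0.07 in remaining embryo. For Farp1 it was 0.18 ± 0.03, 0.16 ± 0.03 and 0.14 ± 0.03, and for Dock9 0.17 ± 0.05, 0.06 ± 0.04 and 0.18 ± 0.03. The term was positive as well for Tgds (0.18 ± 0.05, 0.17 ± 0.05 and 0.27 ± 0.04), which has no such match and passed in tail bud and remaining embryo. Also without a match, Uggt2 in heart (0.48 ± 0.11) and Gpc6 in remaining embryo (0.10 ± 0.03) passed with a positive term. In Δ92 heart Uggt2 itself was at 37.6 ± 2.82 CPM (SD), against 38.3 ± 2.32 in wild type. Gpr180 in Δ92 was at 29.5 ± 1.12 CPM (SD) in tail bud, against 27.8 ± 4.05 in wild type (log2 0.09 ± 0.08). Its Δ92 level was 29.3 ± 3.93 against 25.0 ± 2.51 CPM in heart and 31.2 ± 1.99 against 27.7 ± 0.54 in remaining embryo. Gpr180 passed in Δ92 in no tissue, and its departure from additive effects is given below. The term was negative for Dzip1 (-0.16 ± 0.05, -0.33 ± 0.08 and -0.21 ± 0.05). With 1 library left out, Gpc6 in remaining embryo was kept in 8 of 23 fits and Tgds in tail bud in 9 of 24. Dzip1 was kept in 8 of 24 in tail bud and 13 of 24 in heart. Members past the threshold of this term numbered 4 in tail bud (background 3.66%), 4 in heart (1.58%) and 6 in remaining embryo (5.18%).

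The miR-17 term was negative for Gpr180 (-0.32 ± 0.08, -0.20 ± 0.07 and -0.26 ± 0.07) and positive for Dzip1 (0.25 ± 0.05, 0.38 ± 0.08 and 0.23 ± 0.06). It passed for 3 members in tail bud (background 5.44%), 2 in heart (3.61%) and 3 in remaining embryo (7.49%). With 1 library left out, the tail bud call of Gpc6 was kept in 6 of 24 fits. The miR-19 term was negative for Tgds (-0.27 ± 0.06, -0.19 ± 0.06 and -0.27 ± 0.05) and positive for Gpc6 (0.16 ± 0.03, 0.21 ± 0.05 and 0.08 ± 0.03). It passed for 3 members in tail bud (5.33%), 4 in heart (4.37%) and 1 in remaining embryo (6.59%). The heart call of Tgds was kept in 12 of 24 such fits. The miR-18 term was called for no member by edgeR or DESeq2 in tail bud (background 0.323%), heart (0.0896%) or rest of embryo (0.748%), with 5, 3 and 3 members at an unadjusted p under 0.05.

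Departure from additivity compares the combined mutants with the sums of the single-family changes. By a test with 3 degrees of freedom, 1 member passed in tail bud (Gpr180, background 0.0176%), 1 in heart (Uggt2, 0.0597%) and 3 in remaining embryo (Esd, Gpr180 and Sox21, 0.103%). Nothing is read from these counts, which use the values that chose the members. With 1 library left out at a time, Uggt2 in heart and Esd still passed each time. Gpr180 in tail bud did not pass without Δ17,18 replicate 2 or full knockout replicate 2, Gpr180 in the remaining embryo did not pass without any 1 of the 3 wild-type libraries, and Sox21 did not pass without either Δ17,18,92 library or any 1 of several others.

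In tail bud the single-family changes of Gpr180 summed to -1.29, whereas the full knockout stood at 0.04, a difference of 1.33 ± 0.21. Without wild-type replicate 3 the sum was -0.82, the full knockout 0.16 and the difference 0.98. For the remaining embryo the sum was -0.85 and the full knockout 0.20, a difference of 1.05 ± 0.19, and in heart the difference was 1.00 ± 0.22. For Uggt2 in heart the singles summed to -1.38 and the full knockout stood at 0.19, a difference of 1.57 ± 0.23. Dzip1 lay on the other side, with differences of -1.01 ± 0.30 in heart and -0.85 ± 0.17 in remaining embryo. Esd in Δ17,18 differed from its sum by -0.51 ± 0.11 in the remaining embryo and by -0.33 ± 0.13 in tail bud, where Δ17,18,92 (0.42 ± 0.18) and the full knockout (0.51 ± 0.24, and 0.16 without wild-type replicate 3) differed the other way.

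**Figure D4:**
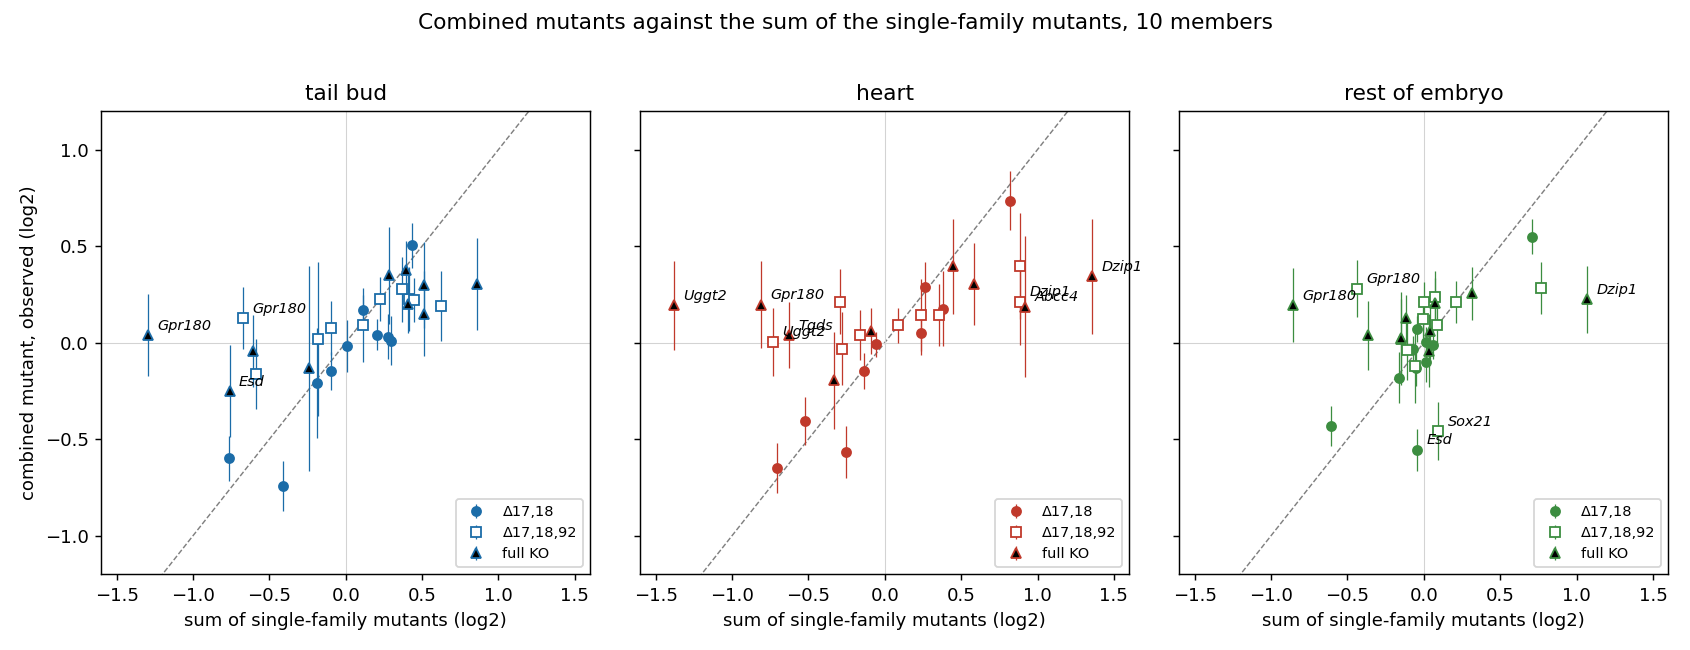
Log2 fold change of the combined mutants against wild type (vertical axis) against the sum of the single-family mutants (horizontal axis) for the members, by tissue; bars are the standard error of the difference of both, and the dashed line marks equality. Sox21 in heart is left out for its low counts. In the full knockout Gpr180 in every tissue and Uggt2 in heart lie above the line and Dzip1 in heart and the remaining embryo lies below it, and Esd lies below it in Δ17,18.

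The levels of Gpr180, Tgds, Esd and, in heart, Uggt2 were low in some alleles. They were closer to the wild-type level, or above it, in other alleles that lack the same microRNAs and more. Esd in the full knockout still lay below wild type in tail bud and heart. Gpc6, Farp1 and Dock9 were higher in the full knockout, by 0.20 to 0.40 on the log2 scale in the comparisons that passed. Dzip1 had positive log2 differences in the 4 genotypes that lack miR-17 (0.21 to 0.74) and in Δ18 and Δ19 (0.15 to 0.47), with the highest in Δ17,18. Across the 24 group means, after subtracting each tissue's mean, Tgds and Gpr180 correlated at Pearson's r = 0.80, Gpr180 and Farp1 at 0.77, and Dzip1 and Esd at -0.69. These means share libraries, and neighbouring genes share a chromosome.

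The position along the chromosome was examined with a list set by order alone, the 20 protein-coding genes on each side of Mir17hg. This list of 40 holds 8 of the members, and 32 are not members. Of these 32, 24 could be tested in tail bud, 18 in heart and 23 in remaining embryo. In Δ17 1 of 24 passed in tail bud, and edgeR called none in heart or the remaining embryo, where 1.77%, 0.555% and 1.56% of all genes passed. In Δ17,18 the counts were 5 of 24 in tail bud (20.8%, against 13.9% of all tested genes of chromosome 14 and 8.31% of all genes), 0 of 18 in heart (all genes 1.12%) and 2 of 23 in the remaining embryo (4.44%). In Δ19 they were 1, 0 and 2, against 1.03%, 0.406% and 1.88% of all genes. In the full knockout they were 1 of 24, 3 of 18 and 3 of 23 (4.17%, 16.7% and 13.0%, against 10.4%, 3.91% and 6.66% of all genes). The median log2 fold change of the non-members lay between -0.02 and 0.07 in these genotypes, while that over all genes was within 0.02 of zero. The tail bud counts here, and the tail bud values of single non-members below, include wild-type replicate 3. Without it 2.54% of all genes passed in Δ17,18 tail bud. In fits of only the libraries compared 0.0437% passed there, and no gene of the list of 40 was called in tail bud.

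Named by the number of comparisons passed, these non-members included Tpm3-rs7, the gene just before Mir17hg, Rnf219, Mbnl2, Rap2a, Slitrk5, Slitrk6 and Lmo7. Tpm3-rs7 was lower in 5 comparisons, by 0.30 ± 0.06 in Δ17,18 tail bud (log2 -0.30, edgeR, adjusted p = 0.00255) and by 0.29 ± 0.07 in full knockout heart (log2 -0.29, adjusted p = 0.0159). Slitrk5, a synaptic membrane protein, was lower in tail bud in Δ17 (-0.41 ± 0.10, adjusted p = 0.0254) and Δ17,18 (-0.49 ± 0.10, adjusted p = 0.00384). Mbnl2, a splicing regulator, was higher in full knockout tail bud by 0.33 ± 0.10 and by 0.28 ± 0.05 in its remaining embryo (adjusted p = 0.0308 and 0.000537), and Rap2a, a small GTPase, was lower by 0.22 ± 0.05 (log2 -0.22) in the remaining embryo (adjusted p = 0.00329). Rnf219 was lower in Δ17,18 in the remaining embryo (-0.24 ± 0.05, adjusted p = 0.00216). Lmo7 (0.41 ± 0.11 in Δ17,18,92) and Slitrk6 (0.55 ± 0.12 in Δ19) each passed once, in the remaining embryo. None of these followed the pattern of Gpr180, with lower levels in Δ17, Δ19 and Δ17,18 of every tissue past the threshold.

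Outside this list, Gm5089 and Tbc1d4 were picked after their values were seen. Gm5089, gene 28 after Mir17hg, had 1 to 9 counts per library in wild-type rest of embryo and 43 to 54 in Δ17 and 23 to 47 in Δ19, and its fitted log2 fold changes were 2.91 ± 0.44 and 2.48 ± 0.46. In the other mutants it had 1 to 10 counts there, with 1 to 6 in Δ17,18, which also lacks miR-17 and miR-20a. The cause was not tested. Tbc1d4, gene 23 before Mir17hg and a regulator of glucose transporter traffic, was lower in Δ17,18 by 0.82 ± 0.20 in the remaining embryo (log2 -0.82), with 13.9 to 21.9 CPM against 28.4 to 31.1 CPM in wild type. In Δ19 it had 11.3 to 22.2 CPM there and did not pass.

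**Figure D5:**
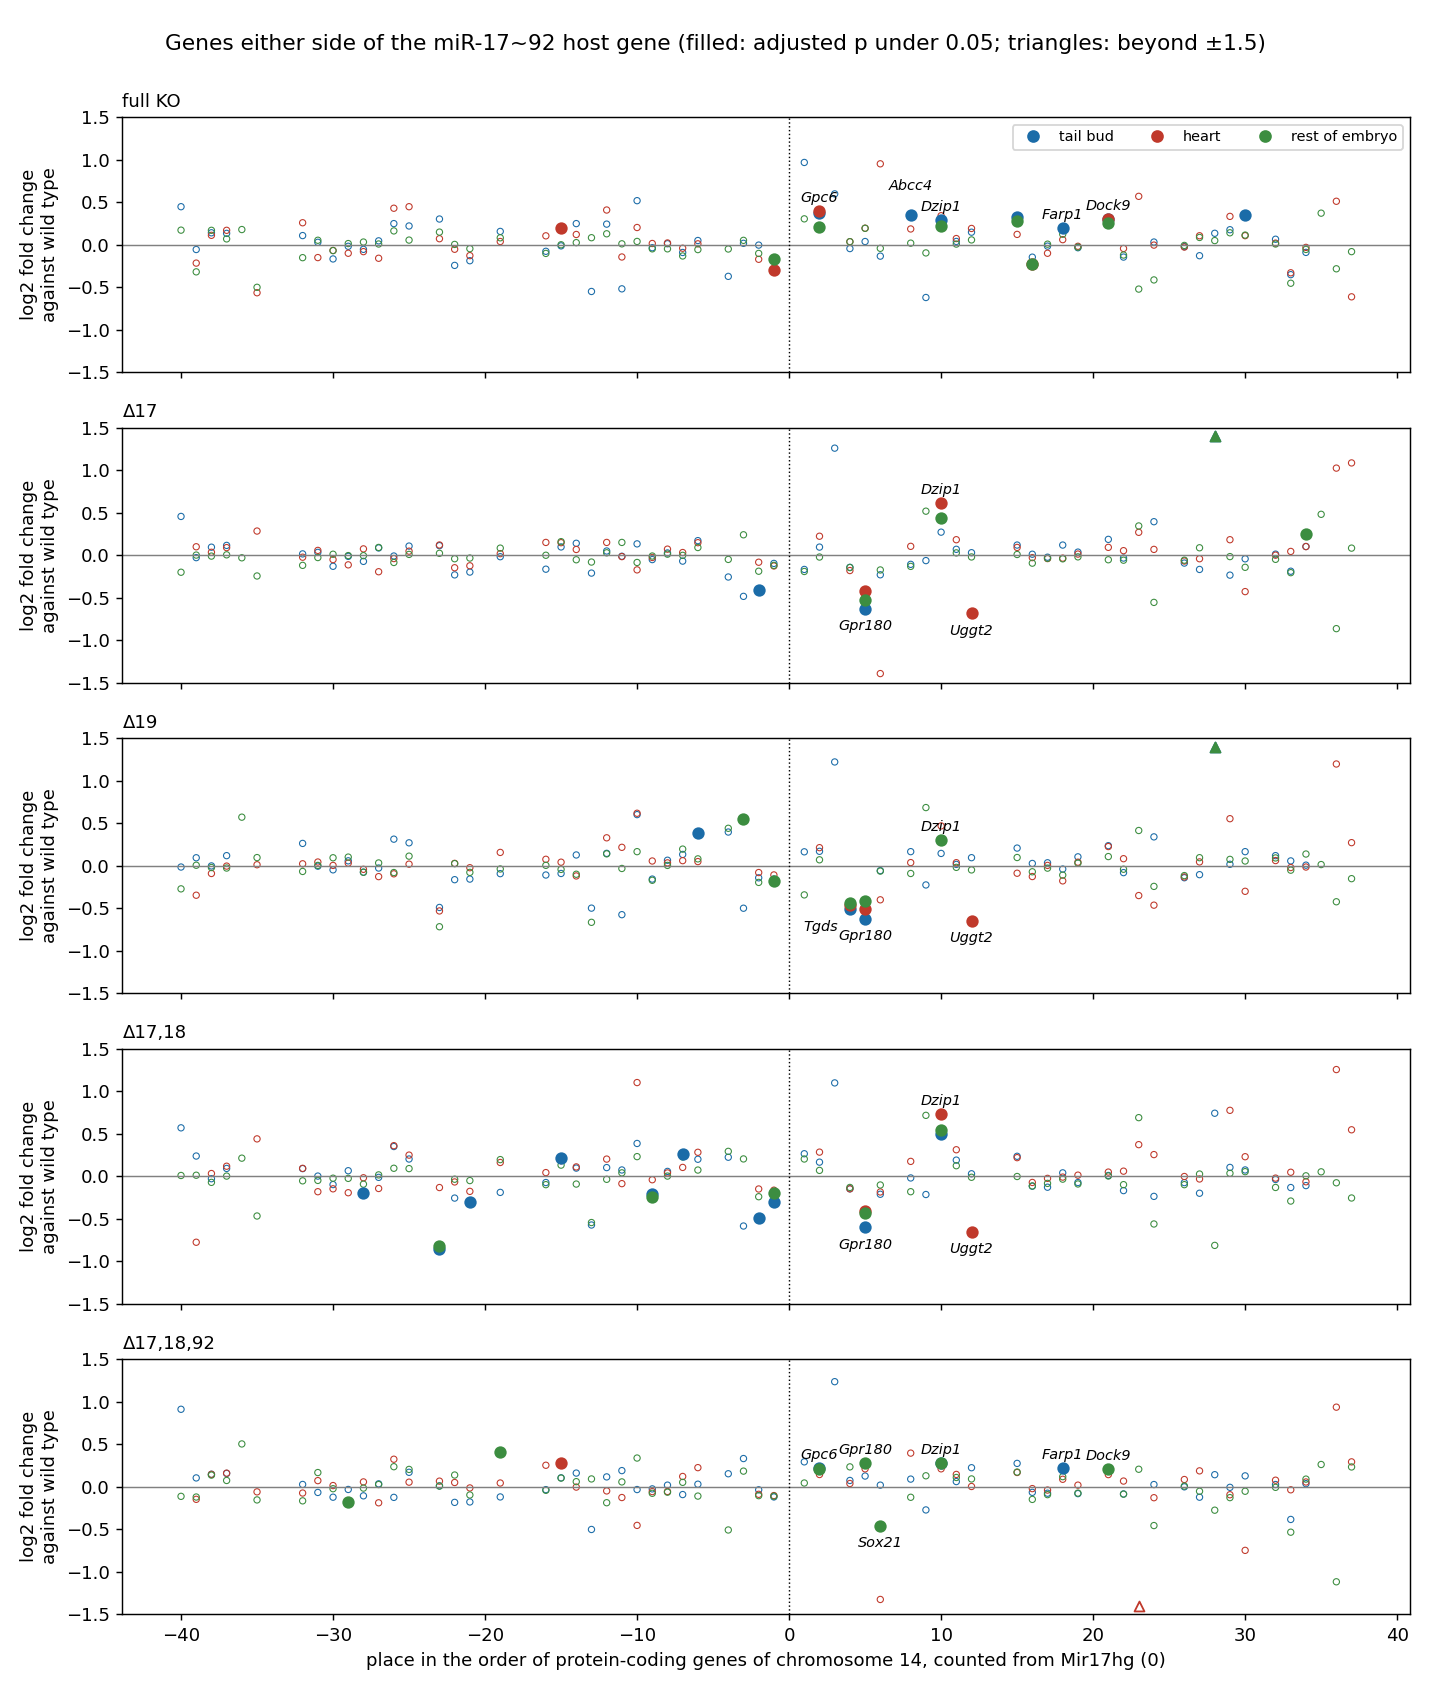
Log2 fold change against wild type (vertical axis) of the genes within 40 places of Mir17hg (horizontal axis, place in gene order; not distance) in 5 mutants, coloured by tissue; filled points passed an adjusted p under 0.05, open points did not, and triangles lie beyond the axis. Named points are members; Esd lies outside this range. In Δ17, Δ19 and Δ17,18 Gpr180 and, in heart, Uggt2 are filled below zero and Dzip1 above it, and the filled triangles in Δ17 and Δ19 are Gm5089.

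Genes whose 24 group means ran most like those of a member were looked up over 15687 genes. For Gpr180 these were Mitd1 (Pearson's r = 0.91), Gps1 (0.90) and Srpr (0.90). For Esd they were Exosc9 (0.92), Pop1 (0.91) and Elp3 (0.89), for Tgds Apmap (0.88), Chst14 (0.87) and Hspb9 (0.84), and for Gpc6 Atf7ip (0.89), Lama5 (0.87) and Jmy (0.86). For Dzip1 they were Fsd1l (0.87), Ogdhl (0.86) and Setd4 (0.84), for Dock9 Nsmaf (0.81) and Fam120a (0.81), and for Uggt2 Spry1 (0.77), Spint2 (0.77) and Galnt7 (0.75). Of the genes named here, Elp3 and Ogdhl lie on chromosome 14, at 161 and 601 genes before Mir17hg. All points share the same libraries and depth.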

How the data were processed

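The authors deposited 1 table of raw whole-number counts per gene for 71 libraries. The submitters' processing notes name Subread 1.4.2 (featureCounts), STAR 2.3.0 and SAMtools 0.1.14 as tools, and mm9 and NCBIM37 as builds. The annotation release, strand setting and treatment of shared reads are not given in the sources used here, so reads of overlapping genes could not be told apart. Reads were single and 50 bases long. Symbols, gene order, exon lengths and 3′ untranslated regions came from GENCODE M21 (GRCm38), matched by gene ID for 32897 of 37620 genes. As the builds differ, no gene coordinates are printed.

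edgeR 4.0.16 (under R 4.3.3) fitted the libraries of a tissue jointly, with a robust quasi-likelihood fit after TMM scaling and the low-count filter of filterByExpr (grouped by genotype), and Benjamini-Hochberg adjustment over all genes tested (tail bud 17009, heart 16750, remaining embryo 17512), threshold 0.05. The wild-type tissues (9 libraries) and the tissue-by-genotype test (71 libraries) were separate fits that took libraries of different tissues as independent. All 10 members passed the filter in each tissue. The fits were tested on simulated data. None of the 70 replicate pairs looked like 1 library deposited in duplicate, since chi-square over degrees of freedom was at least 2.52. The design text calls replicates biological, and p-values measure the spread between them. The shared spread within a tissue was a biological coefficient of variation of 8.74%, 8.87% and 6.47%.

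Replicate numbers were not used as pairs: in 0 of 21 comparisons did all same-numbered libraries deviate together (20 of 62 pairs above 0.1). Across tissues, same-numbered wild-type libraries deviated together in 9 of 9 pairs, so these numbers pair them; whether they came from the same embryos is not given in the sources used here. Alternatives were DESeq2 1.42.0, RLE factors, 2 other filters, a replicate block, fits of only the libraries compared, leaving out each library, other list sizes, and 8-base seed matches only. The members, gene lists and tests were chosen with earlier results of these data known. Named non-members were the 8 genes of the neighbour list with the most comparisons past the threshold, ties by smallest p, and for members with at least 3 such comparisons the 3 genes with the highest correlation of log2 CPM (prior count 2). Some genes that these rules or the marker lists hold are not reported here.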

Additional observations from a re-analysis of the deposited data

How the results depend on the processing

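No member's call changed direction. Of the 42 calls against wild type, 22 were kept whichever library was left out and 13 under every alternative. The same counts were 15 and 15 of 30 for the family terms, 2 and 2 of 5 for departure, 12 and 12 of 22 for the steps, and 15 and 15 of 16 for wild-type tissues. RLE factors kept 118 of 118 calls and DESeq2 99 of 99. No filter on low counts kept 110 of 118 and keeping only genes with mean log2 CPM of 3 or more kept 116. Fits of only the libraries compared kept 25 of 42, and in tail bud 0 of 14 calls and 0% of the neighbour list. In those tail bud fits 0% to 1.23% of all genes passed (0.0437% in Δ17,18, in place of 8.31%), while Gpr180 in Δ17 stood at -0.62. The cause was not tested.

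Within a tissue, replicate numbers do not pair the genotypes (correlations of deviations from -0.711 to 0.463, median -0.004). The replicate block kept 110 of 118 calls, with 13 tail bud calls against wild type in place of 14. Across tissues the numbers of wild type pair the libraries, and the replicate block kept all 16 calls between wild-type tissues.

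Departure gave 2 members in tail bud under DESeq2 and 2 with no filter, in place of 1. In heart it gave 3 under DESeq2 and 5 with no filter, in place of 1, and the heart steps gave 10 with no filter in place of 6. The neighbour list in this section includes the members that lie in it, which were chosen with such values known. Nothing is therefore read from its percentages, also not from their change with list size. The percentage of gene-by-comparison values of the neighbour list called in tail bud was 8.93, and 14.5 under DESeq2 and 14.9 with the stricter filter. In heart it was 7.69, and 3.97 with 40 genes each side. In the remaining embryo it was 10.1, with 16.0 for 10 and 6.58 for 40 genes each side. The causes were not tested.

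Leaving out 1 library at a time, calls against wild type ranged from 8 to 20 in tail bud (8 without wild type replicate 3, 9 without full knockout replicate 3), 7 to 13 in heart (7 without wild type replicate 1) and 9 to 18 in the remaining embryo (9 without wild type replicate 1). The term calls ranged from 7 to 12, 6 to 11 (6 without Δ19 replicate 1 or 2) and 8 to 10. Departure calls ranged from 0 to 2, 1 to 3 and 1 to 4, step calls from 4 to 7, 4 to 7 and 7 to 13 (7 without replicate 2 of Δ17,18 or Δ17,18,92). Wild-type tissue calls ranged from 15 to 19. The neighbour percentages ranged from 5.36 to 12.1, 3.57 to 8.16 and 5.53 to 11.1. Using 8-base matches only, 3 members in place of 4 had a site.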
